A study of Mus musculus with 6 samples.

Results

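Extracellular vesicles shed by apoptotic osteoblasts were profiled for small RNA, and the 6 entries named for the muscle miRNAs miR-1a, miR-133a and miR-206 are described here. They were taken by name, with every arm and copy suffix, from the 1712 entries of the deposited table: mmu-miR-1a-3p, mmu-miR-1a-1-5p, mmu-miR-133a-3p, mmu-miR-133a-5p, mmu-miR-206-3p and mmu-miR-206-5p, written below without the mouse prefix. No entry of that table carries the name miR-133b. Values are RPM, the reads of an entry per 1000000 listed reads of its library. The control group (n = 3 libraries) came from mice with the genotype SIRT6f/f, in which both alleles of the deacetylase gene Sirt6 carry loxP sites and no Cre is named. The knockout group (n = 3 libraries) came from Prx1cre;SIRT6f/f mice, which carry the same floxed alleles together with a Cre driven by the Prx1 enhancer, active in the limb mesenchyme and the cells that descend from it. Osteoblasts of both groups were made to undergo apoptosis in medium without serum, and vesicles were pelleted from the cleared supernatant by ultracentrifugation; the extraction note speaks of RNA from cells. The labels give no age, sex or number of animals and do not say whether replicates came from separate cultures. Variation among the libraries, on which every p-value here rests, could thus be purely technical. The main limma fit took this variation from the trend over entries of similar level, and the permutation tests from the compared values themselves. Small RNA data hold no Sirt6 mRNA, so the loss of Sirt6 was not checked here.

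MicroRNAs are cut from hairpin precursors, and the arm that is kept, the guide, pairs through its seed (bases 2 to 8) with target mRNAs and lowers their output. miR-1, miR-133 and miR-206 are the classical muscle miRNAs. miR-1a and miR-133a are made from shared transcripts in heart and skeletal muscle, and miR-206 and miR-133b from a shared transcript in skeletal muscle. miR-1a-3p and miR-133a-3p are the guide arms and are among the most abundant miRNAs of muscle, which makes them sensitive tracers of muscle RNA. miR-133a is also known to act on Runx2, the master transcription factor of osteoblasts, and miR-206 to restrain osteoblast differentiation through the gap junction protein connexin 43.

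The lookup used part of RefSeq's mature miRNA table (GRCm38.p6), since the records of a single chromosome were left out beforehand. Sequences are shown for the entries that this part holds (3 of the 6), with the seed in capitals, because the results turn on which arm was seen.
miR-206-3p: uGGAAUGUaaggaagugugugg
miR-206-5p: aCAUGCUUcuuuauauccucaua
miR-1a-1-5p: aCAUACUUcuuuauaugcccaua
miR-206-3p lies at chr1:20679055-20679076 and miR-206-5p at chr1:20679017-20679039, both on the plus strand of 1 hairpin, and miR-1a-1-5p at chr2:180389057-180389079 on the plus strand. The 5p arms of miR-206 and miR-1a-1 are paralogous: 20 of 23 bases were identical, and the differences were G5A, C17G and U19C, counted from the 5′ end with the base of miR-206-5p first. A single one of these, G5A, falls in the seed. In the GENCODE M21 annotation (GRCm38) the hairpin gene Mir206 (chr1:20679010-20679082) lies within an exon of the long non-coding RNA gene Gm28653, as does Mir133b 3686 bp downstream (chr1:20682769-20682887). Mir1a-1 (chr2:180389048-180389124) and Mir133a-2 (chr2:180398379-180398482) are 9254 bp apart on the plus strand and overlap no other annotated gene. Other genomic copies of miR-1a and miR-133a were not looked up.

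Depth was 1352045 to 1838239 reads per library if the smallest step between values stands for 1 read, and 3 reads then correspond to 1.63 to 2.22 RPM. Of 11 miRNAs taken as markers of mesenchymal cells, the lineage of osteoblasts, 10 are listed. Their summed level was 182920 to 205575 RPM in control and 81744 to 142758 RPM in knockout libraries. The control mean of 191312 RPM includes 38720 RPM of miR-26a-5p, 37256 RPM of miR-125b-5p and 25887 RPM of miR-21a-5p. Whether the listed miRNAs are particular to this lineage was not tested. Unnamed entries took 43.1% to 50.01% of reads in the control and 52.8% to 62.8% in the knockout libraries. Ordinary annotated miRNAs (all named entries outside 5 fragment-like ones, miR-6236, miR-6238, miR-6239, miR-6240 and miR-3968) took 48.0% to 53.0% and 30.1% to 40.8%. Knockout replicate 3 stood apart, with the lowest share of ordinary miRNAs and the lowest mesenchymal total. Because RPM is a share of all listed reads, each level is also given below per 1000000 reads of ordinary annotated miRNAs.

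Of the 6 muscle entries, miR-206-3p and miR-133a-5p held nearly all reads. The other 4, among them the muscle guides miR-1a-3p and miR-133a-3p, were at or near the level of 3 reads in most libraries. The 4 summed to 0 to 8.88 RPM per library. Summed over the 6 entries, the level was 118, 149 and 133.3 RPM in control replicates 1 to 3 and 116, 130 and 149 RPM in knockout replicates 1 to 3. The groups overlapped almost completely: 133.4 ± 15.9 RPM for control and 132 ± 16.5 RPM for knockout libraries (mean ± SD of 3 libraries each; difference -1.66 RPM, exact permutation p = 0.7, 2-sided; the smallest p that 3 against 3 libraries allow is 0.1). In bulk libraries fewer vesicles of a kind and less miRNA per vesicle cannot be told apart. The sum rests on 163 to 274 reads per library. Its makeup was uneven between libraries. miR-206-3p made up 56.9% ± 12.9 of the sum among control and 39.5% ± 12.3 among knockout libraries (exact permutation p = 0.2). miR-133a-5p made up 39.4% ± 11.5 and 58.3% ± 10.6, with no overlap between the groups (exact permutation p = 0.1). Per 1000000 ordinary miRNA reads the sum was 270 ± 45.1 among control and 373 ± 106 among knockout libraries (exact permutation p = 0.2).

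**Figure D1:**
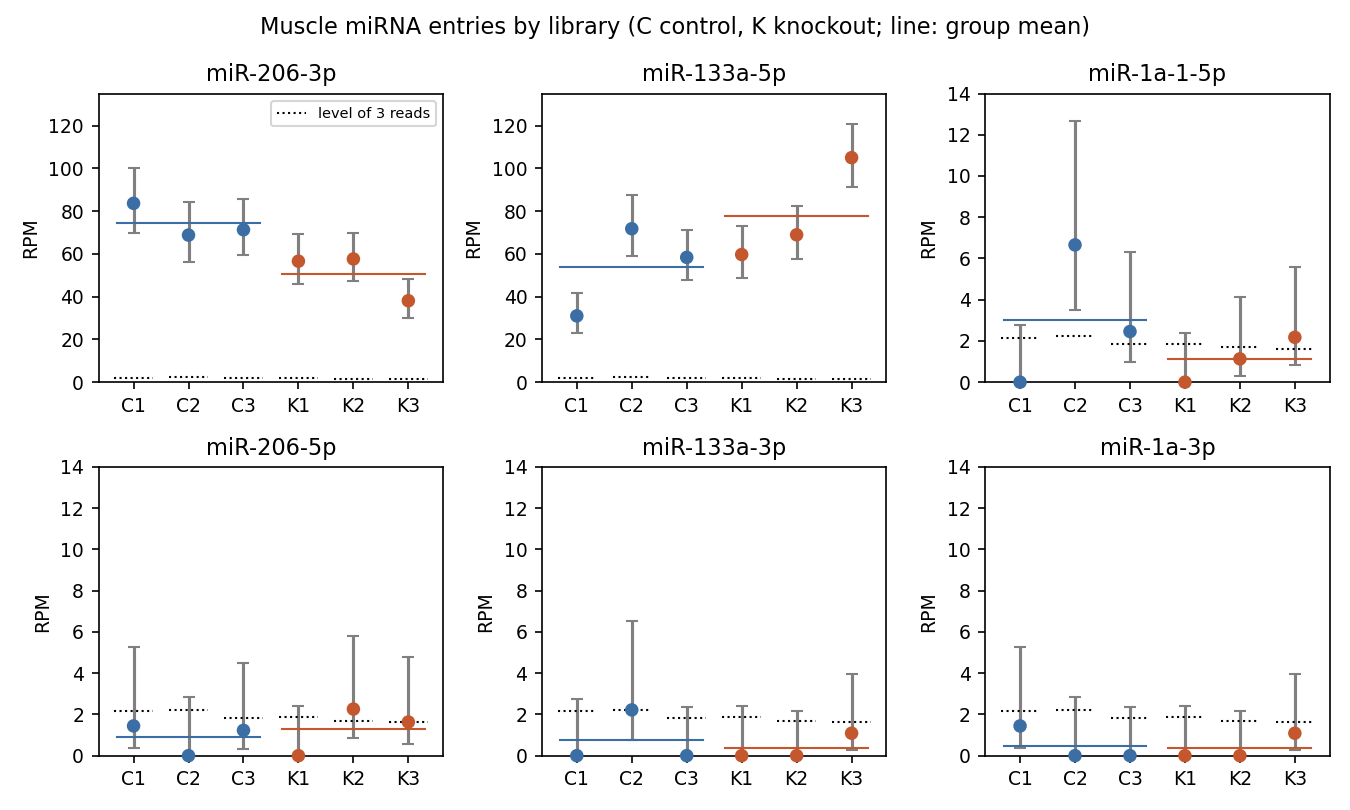
RPM (y axis) of each muscle entry in each library (x axis; C1 to C3 control, K1 to K3 knockout), with 95% Wilson intervals for counting error, dotted lines at the level of 3 reads and solid lines at the group means; the scale of the 4 low entries ends at 14 RPM. miR-206-3p lay between 68.8 and 83.6 RPM in the control and between 38.1 and 57.6 RPM in the knockout libraries, miR-133a-5p between 31.0 and 105 RPM over all libraries, and no low entry exceeded 6.66 RPM.

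miR-206-3p, the guide arm of the skeletal muscle miRNA miR-206, was the steadier of the 2 abundant entries. Its level was 83.6, 68.8 and 71.3 RPM in control replicates 1 to 3 and 56.6, 57.6 and 38.1 RPM in knockout replicates 1 to 3. Every control library lay above every knockout library, and knockout replicate 3 was the lowest. Groups did not overlap, in the lower direction, for 19.3% of the 1114 entries tested, and in the higher direction for 6.28%. The group means were 74.6 ± 7.95 and 50.8 ± 11.0 RPM. The log2 fold change was -0.56 ± 0.35 (SE), with a 95% interval of -1.25 to 0.12, and did not pass limma's test over all entries (adjusted p = 0.380; adjusted p under 0.05 was reached by 4.85% of entries, 2.15% higher and 2.69% lower; groups did not overlap in either direction for 25.6%). Without knockout replicate 3 the log2 fold change was -0.37 (limma adjusted p = 0.407).

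Scaled to ordinary miRNAs, the levels of miR-206-3p drew together. They were 157.7, 143.2 and 148 per 1000000 ordinary miRNA reads in the control libraries and 148.5, 141.2 and 126.5 in the knockout libraries, so the groups overlapped. The means were 149.6 ± 7.39 and 139 ± 11.2 (exact permutation p = 0.3), and the log2 fold change on this scale was -0.11 ± 0.22 (limma adjusted p = 0.839, 95% interval -0.57 to 0.35).

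miR-133a-5p, the arm of the miR-133a hairpin that is usually discarded, varied more. Its level was 31.0, 71.7 and 58.4 RPM in control replicates 1 to 3 and 59.7, 68.9 and 105 RPM in knockout replicates 1 to 3. The groups overlapped, with control replicate 1 lowest and knockout replicate 3 highest. The 95% Wilson intervals for counting error were 23.02 to 41.8 RPM in control replicate 1 and 91.2 to 121 RPM in knockout replicate 3, and neither reached the value of any other library of its group. The means were 53.7 ± 20.8 and 77.9 ± 23.9 RPM (exact permutation p = 0.4). The log2 fold change was 0.57 ± 0.35 (limma adjusted p = 0.378, 95% interval -0.12 to 1.25). Its size leaned on those same libraries, at 0.22 without control replicate 1 and 0.33 without knockout replicate 3.

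Against ordinary miRNAs miR-133a-5p stood higher in the knockout libraries. It had 58.5, 149 and 121 per 1000000 ordinary miRNA reads in control and 157, 169 and 349 in knockout libraries. The groups did not overlap, though control replicate 2 and knockout replicate 1 were close. On this scale 14.4% of entries did not overlap in the higher direction and 8.71% in the lower. The means were 109.6 ± 46.5 and 225 ± 108 (exact permutation p = 0.1), and the log2 fold change of 1.02 ± 0.36 did not pass the test (limma adjusted p = 0.173; 3.59% of entries passed on this scale, 3.41% higher and 0.18% lower). Its 95% interval was 0.25 to 1.79.

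**Figure D2:**
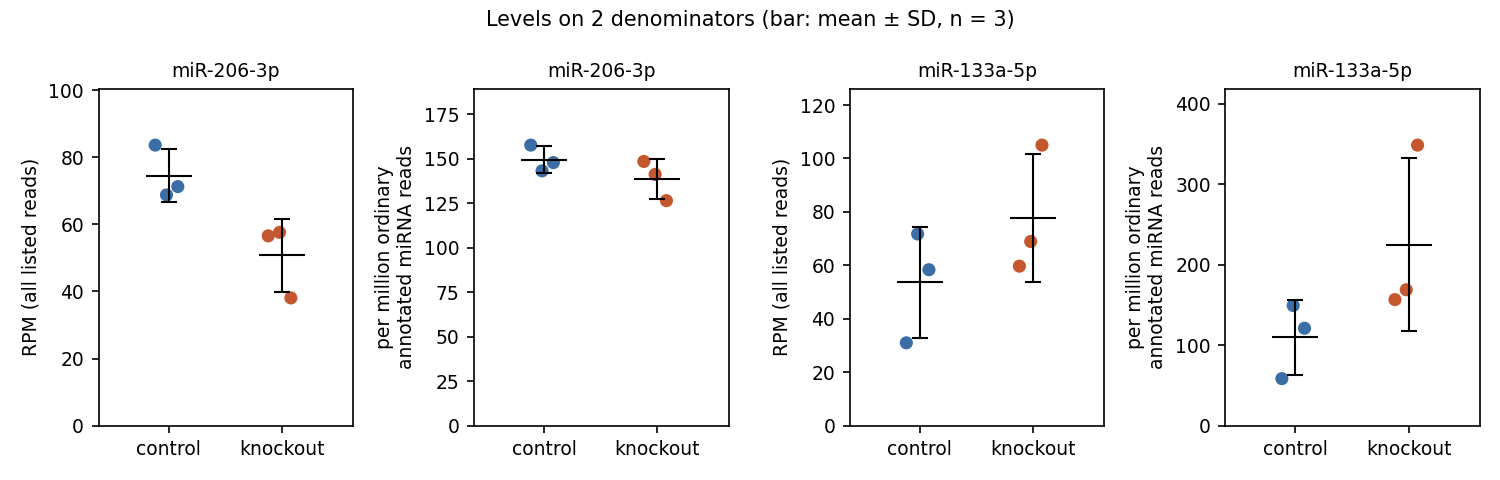
Level (y axes, from 0) of miR-206-3p (left pair) and miR-133a-5p (right pair) in the control and knockout groups, as RPM of all listed reads and per 1000000 ordinary annotated miRNA reads; points are libraries and bars the mean ± SD (n = 3). For miR-206-3p the groups are apart in RPM and overlap on the other scale, and for miR-133a-5p the reverse holds.

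The 2 abundant entries thus had log2 fold changes of opposite sign, and their ratio was compared directly, a choice made after their values were seen. miR-206-3p divided by miR-133a-5p was 2.70, 0.959 and 1.22 in control replicates 1 to 3 and 0.948, 0.836 and 0.363 in knockout replicates 1 to 3. On the log2 scale with 1 RPM added, the ratio was 0.54 ± 0.76 and -0.59 ± 0.74, a difference of -1.13 (exact permutation p = 0.1, the smallest possible). The groups did not overlap, but by a margin of -0.06 in control replicate 2 against -0.08 in knockout replicate 1. Without control replicate 1 the difference was -0.70 (exact permutation p = 0.4), and without knockout replicate 3 it was -0.71 (exact permutation p = 0.2). The plain ratio does not depend on the scaling of a library; the log2 difference, which does through the added constant, was -1.14 with 0.5 RPM and -1.06 with 5 RPM added. In order of level, neither entry was above the other beyond the spread: miR-206-3p was the higher in control replicates 1 and 3 and miR-133a-5p in the other 4 libraries.

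The guide arm of miR-133a was nearly missing. miR-133a-3p was listed at 2.22 RPM in control replicate 2 and 1.09 RPM in knockout replicate 3, or 3 and 2 reads, and at 0 in the other 4 libraries. Where it was at 0, miR-133a-5p was at least 14.3-fold (control replicate 1) to at least 40.7-fold (knockout replicate 2) higher, against a level of 3 reads per library. In the libraries with reads of both arms, the ratio was 32.3 (95% exact interval 10.7 to 160) in control replicate 2 and 96.5 (26.4 to 803) in knockout replicate 3. The log2 ratio of the arms with 1 RPM added was 5.13 ± 0.71 among control and 5.91 ± 0.23 among knockout libraries (exact permutation p = 0.2), and it is limited by the few reads of the 3p arm. The hairpin of miR-206 was used the other way round. Over all libraries miR-206-3p had 588 reads and miR-206-5p 11, so that the 3p arm held 98.3% of the mean level of the hairpin, while the 5p arm held 99.2% of that of miR-133a.

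One-sided use of a hairpin was common in these vesicles. Of 147 hairpins with both arms listed under 1 name and at least 10 RPM on average for both together, 47 had over 90% on the 5p arm and 53 over 90% on the 3p arm. At least the share of miR-133a was on the 5p arm in 21 of them, and at least the share of miR-206 on the 3p arm in 31. By the names of the entries, miR-206 was one-sided towards its known guide arm and miR-133a towards its passenger arm. Read sequences were not seen, so whether the reads named miR-133a-5p come from that hairpin was not tested.

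**Figure D3:**
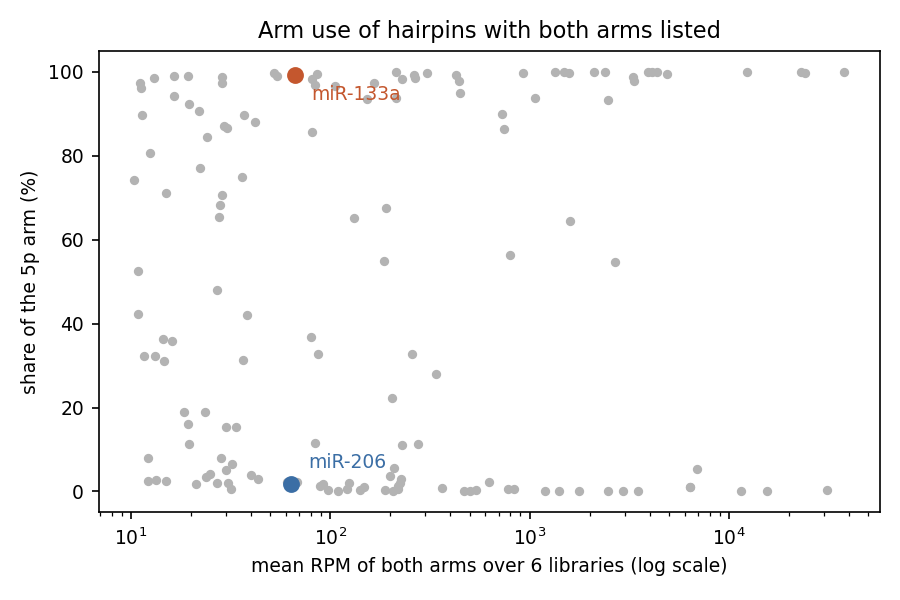
Share of the 5p arm in percent (y axis) against the mean RPM of both arms over 6 libraries (x axis, log scale) for 147 hairpins (grey points), with miR-133a and miR-206 in colour. At similar total levels miR-133a lies at 99.2% and miR-206 at 1.72%.

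The muscle guide miR-1a-3p, which has the same seed as miR-206-3p in textbook sequences, was listed at 1.44 RPM in control replicate 1 and 1.09 RPM in knockout replicate 3, 2 reads each, and at 0 in the other 4 libraries. In those 4, miR-206-3p was at least 30.3-fold to at least 38.7-fold higher. In the other two the ratio was 58 (95% exact interval 15.7 to 485) and 35 (9.33 to 295). The log2 ratio of miR-206-3p to miR-1a-3p with 1 RPM added was 5.81 ± 0.60 among control and 5.32 ± 0.94 among knockout libraries (exact permutation p = 0.5). That of miR-1a-3p to miR-133a-3p was -0.13 ± 1.49 and 0 ± 0 (exact permutation p = 1), and says little because both were at 3 reads or fewer. Neither guide reached the filter for testing (at least 1 RPM in at least 3 libraries).

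Both 5p entries of low level were tested without passing. miR-1a-1-5p had 0, 6.66 and 2.46 RPM in the control and 0, 1.13 and 2.18 RPM in the knockout libraries, and its highest value stands for 9 reads. Its log2 fold change was -0.66 ± 0.75 (limma adjusted p = 0.699). miR-206-5p had 1.44, 0 and 1.23 RPM and then 0, 2.26 and 1.63 RPM, at most 4 reads, with a log2 fold change of 0.22 ± 0.73 (limma adjusted p = 0.869). The 95% Wilson intervals of these entries are wide, such as 3.50 to 12.7 RPM for the highest value and 0 to 2.77 RPM for control replicate 1 of miR-1a-1-5p. Those intervals did not overlap, but they belong to the highest and the lowest control library of miR-1a-1-5p, picked as extremes. Between the groups the values of miR-1a-1-5p overlapped. Of the 6 muscle entries, 4 were tested and 0 passed limma's threshold, with 0 at an unadjusted p under 0.05. Their median log2 fold change was -0.17, beside -0.27 over all 1114 tested entries.

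Other muscle-enriched miRNAs gave the same sparse picture except for miR-486, which is also abundant in red blood cells. Of the 5 listed entries of miR-1b, miR-208b and miR-486, 3 were tested and 1, miR-486b-5p, fell, beside 2.69% of all tested entries called lower (0.18% after rescaling to ordinary miRNAs). The table given here holds no entry named miR-208a or miR-499, the miRNAs carried by myosin genes of the heart and slow muscle together with miR-208b. miR-208b-5p had 0, 0 and 2.46 RPM in the control and 1.87, 2.26 and 3.26 RPM in the knockout libraries (limma adjusted p = 0.402). miR-486b-5p had 716, 465 and 530 RPM in control and 361, 287 and 198 RPM in knockout libraries, with no overlap (19.3% of all tested entries did not overlap in the lower direction). Its log2 fold change was -1.03 ± 0.29 (limma adjusted p = 0.0172). The call was lost after rescaling to ordinary miRNAs (-0.57, limma adjusted p = 0.177) and without control replicates 1, 2 or 3 or knockout replicate 2 (limma adjusted p = 0.260, 0.133, 0.339 and 0.0802). Beside it, the 6 listed blood cell markers summed to 156 to 205.2 RPM in the control and 54.4 to 113 RPM in the knockout libraries. Of the 5 tested among them, 5 had a log2 fold change below 0 and 1 passed in the lower direction, where 2.69% of all tested entries passed. Below 0 were 60.1% of all tested entries and 79.9% of the ordinary miRNAs averaging at least 10 RPM. The part of blood markers in the value of miR-486b-5p was not tested.

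miR-133a belongs to a list of miRNAs known to act on Runx2 (miR-133a, miR-23a, miR-30c, miR-34c, miR-135a, miR-137, miR-204, miR-205, miR-211, miR-217, miR-218 and miR-338). Every arm of each was taken, so passenger arms such as miR-133a-5p and miR-30c-1-3p are counted in the list. The guide miR-133a-3p was below the filter and is not among its tested entries. Of this list, miR-133a included, 21 entries are in the table, 14 were tested and 0 passed limma's threshold in either direction, with 0 at an unadjusted p under 0.05. The median log2 fold change was -0.32, beside -0.27 over all tested entries and -0.59 over the 269 ordinary miRNAs that average at least 10 RPM. After rescaling to ordinary miRNAs the median of the list was 0.08, and that of all tested entries 0.06.

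Within the list, 3 guide arms dominated. miR-34c-5p, a p53 target, had 3614, 3961 and 3485 RPM in control and 3090, 3351 and 2124 RPM in knockout libraries, with no overlap between the groups. miR-23a-3p had 3921, 3390 and 3169 RPM and then 2557, 2667 and 1992 RPM, also with no overlap. miR-30c-5p had 1078, 1060 and 952 RPM and then 709, 811 and 625 RPM, the third with no overlap. These 3 of the 14 tested entries of the list stand beside 19.3% of all tested entries that did not overlap in the lower direction. Their log2 fold changes were -0.39, -0.54 and -0.53 (limma adjusted p = 0.529, 0.280 and 0.278). On the scale of ordinary miRNAs these became 0.07, -0.08 and -0.07, so that of miR-34c-5p changed sign. Each of the 3 exceeded miR-133a-5p and miR-206-3p in every library. miR-30c-1-3p, a passenger arm with 13.0, 22.2 and 17.8 RPM in the control and 19.9, 21.5 and 21.8 RPM in the knockout libraries, had 0.27 (limma adjusted p = 0.766). miR-218-5p had 1.44, 6.66 and 0 RPM in the control and 5.60, 7.34 and 4.90 RPM in the knockout libraries (1.37 ± 0.71, limma adjusted p = 0.252). miR-204-5p, at 6.49, 3.70 and 3.07 RPM and then 4.35, 2.26 and 0 RPM, had -1.01 ± 0.73 (limma adjusted p = 0.502).

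**Figure D4:**
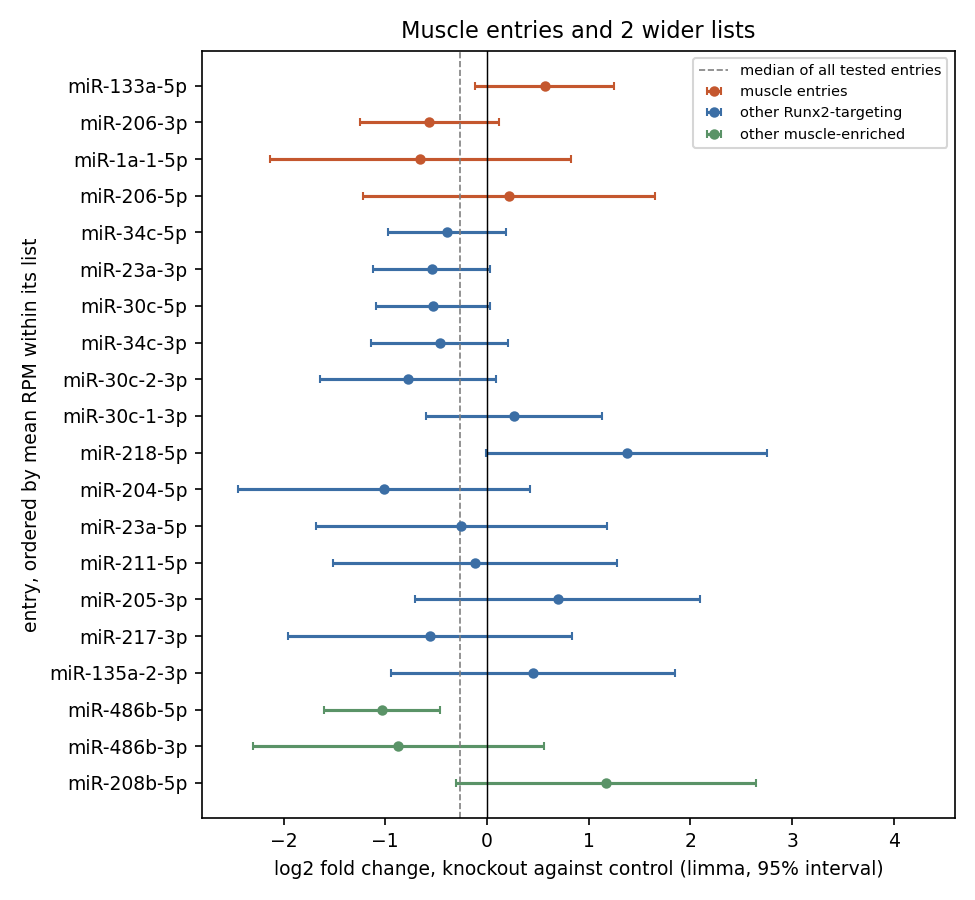
Log2 fold change of knockout against control (x axis; limma on log2(RPM + 1), points with 95% intervals) for the tested muscle entries, the other tested Runx2-targeting entries and the other tested muscle-enriched entries (y axis, by mean RPM within each list); the dashed line is the median of all tested entries, -0.27. The Runx2-targeting entries include passenger arms. The intervals of all entries but miR-486b-5p include 0.

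The seed letters of miR-206-3p, miR-133b-3p, miR-23a-3p, miR-30c-5p, miR-204-5p and miR-218-5p were looked up in the Runx2 3′ UTR, read 5′ to 3′ on the transcript strand only, because the list is defined by Runx2. The longest annotated Runx2 3′ UTR in GENCODE M21 (3904 bases) holds TGTTTAC, the match to bases 2 to 8 of miR-30c-5p, 3 times, and AATGTGA, that of miR-23a-3p, 1 time. Of 1630 genes whose longest 3′ UTR is within 80% to 120% of that length, 34.3% and 36.7% hold these letters. AAAGGGA, the match to miR-204-5p, and AAGCACA, that to miR-218-5p, are each in it 2 times, and 37.2% and 36.9% of those UTRs hold them. miR-34c-5p and both miR-133a arms had no sequence in the RefSeq set used here, so their seeds were not looked up under those names. The first match to miR-30c-5p and that to miR-23a-3p are shown with their flanks, the matched letters in capitals.
miR-30c-5p match at base 182: tgggtttcatatTGTTTACtat
miR-23a-3p match at base 1005: tccttcaggcatAATGTGAttt
ACATTCC, the match to the seed of miR-206-3p printed above, and GGACCAA, that of the seed of miR-133b-3p in RefSeq, were not among the letters of this UTR (25.6% and 18.2% of UTRs of like length hold them). A match is a run of letters and not a measured site.

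By pattern across libraries, the 2 abundant muscle entries kept different company. Over 6 libraries and 353 entries averaging at least 10 RPM, the entries with the highest Pearson correlation of log2(RPM + 1) with miR-206-3p were miR-222-3p (r = 0.999), miR-199a-5p (r = 0.995) and let-7e-5p (r = 0.995). For miR-133a-5p they were miR-30c-1-3p (r = 0.915), the unnamed entry 12_20255 (r = 0.908) and miR-6981-5p (r = 0.854). For the sum of the 6 muscle entries they were the unnamed entry 17_34032 (r = 0.790), miR-7215-5p (r = 0.6996), the unnamed entries 9_77489 (r = 0.685) and 6_66950 (r = 0.682), and miR-30c-1-3p (r = 0.640). These values describe 6 libraries that share a denominator within each library, and the highest of 353 are given. The median correlation over all 353 was 0.81 for miR-206-3p and -0.61 for miR-133a-5p. Over the 10 mesenchymal markers it was 0.99 (range 0.12 to 0.995) and -0.79 (range -0.85 to -0.42). miR-206-3p and miR-133a-5p correlated with each other at r = -0.85.

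Set against the 10 mesenchymal markers, miR-206-3p ranged from 376 to 466 per 1000000 of their reads. Against all ordinary miRNAs it ranged from 126.5 to 157.7 per 1000000 of their reads. Those scales are not separate, because the markers are counted among the ordinary miRNAs. miR-206-3p had 407, 376 and 384 reads per 1000000 mesenchymal marker reads in control replicates 1 to 3 and 415, 404 and 466 in knockout replicates 1 to 3. The means were 389 ± 15.9 and 428 ± 33.2 (exact permutation p = 0.2 on the log2 scale), and the groups overlapped. miR-133a-5p had 151, 392 and 315 and then 437, 483 and 1284 reads per 1000000 mesenchymal marker reads. Its groups did not overlap on this scale (286 ± 123.3 and 735 ± 476, exact permutation p = 0.1 on the log2 scale). The log2 difference was 1.29, and 0.79 without knockout replicate 3. The marker total itself fell without overlap, from 191312 ± 12416 RPM in control to 120321 ± 33557 RPM in knockout libraries. An entry unchanged in RPM would thus stand higher in the knockout group on this scale. The share of all entries without overlap on this scale was not computed. The ratios to the markers were chosen after the values were seen.

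**Figure D5:**
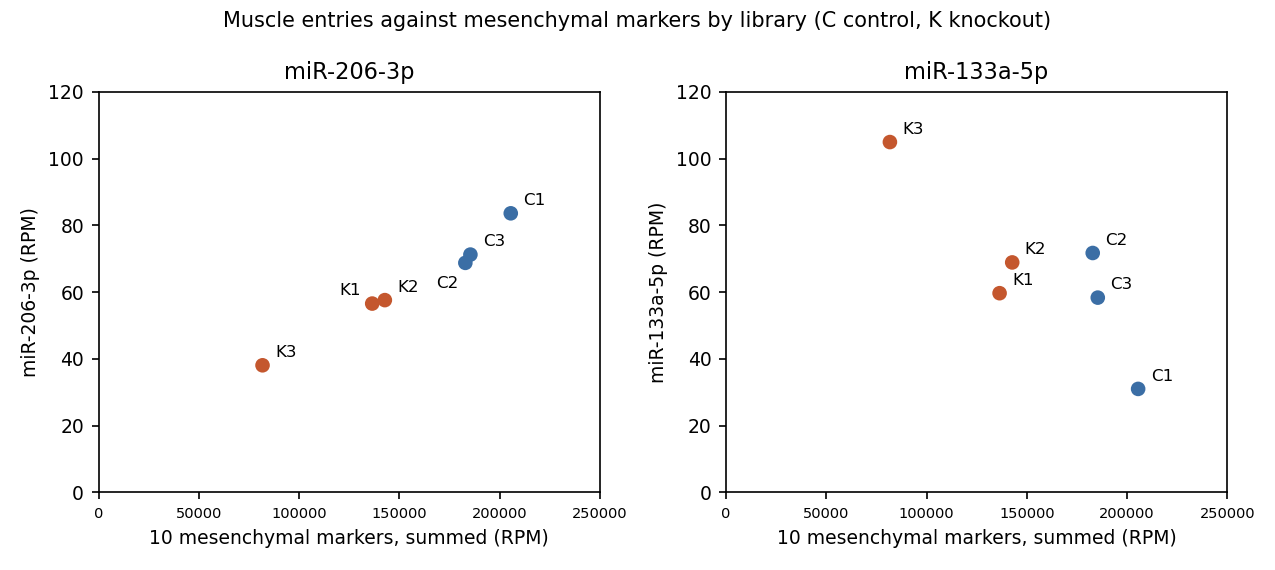
RPM of miR-206-3p (left) and miR-133a-5p (right) on the y axes against the summed level of 10 mesenchymal markers in RPM (x axes), 1 point per library (C1 to C3 control, K1 to K3 knockout), axes from 0. miR-206-3p lies highest where the markers are highest (control replicate 1) and lowest where they are lowest (knockout replicate 3), and miR-133a-5p the reverse.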

How the data were processed

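Small RNA libraries of 3 control and 3 knockout vesicle samples were analysed, grouped by their labels. The authors deposited 1 table of RPM values; each column sums to 1000000 over 1528 named and 184 unnamed entries. The submitters' processing notes list the authors' tools as fastp and edgeR, without role or version. The aligner, the annotation release and the build were not given in the sources used here. Within a column, all values were multiples (within 0.001 of a step) of 0.5 times the lowest value above 0, which was therefore read as 2 reads. Read numbers and Wilson or exact 95% intervals rest on that reading and cover counting error only, since reads without molecular identifiers are not independent molecules.

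Entries with at least 1 RPM in at least 3 libraries were tested with limma 3.58.1 (R 4.3.3) on log2(RPM + 1) with a mean-variance trend, 2-sided, Benjamini-Hochberg adjusted over 1114 entries. On that scale the fold changes of low entries are understated. In the main fit the standard errors came wholly from the trend, and an entry's own spread did not enter. In the fit rescaled to ordinary miRNAs the intervals are wider for their SE, so an entry's own spread entered in part. Single values used exact 2-sided permutation tests (SciPy 1.17.1). The text gives raw p. Over a family of 8 planned or added per-library quantities, the summed levels and the log2 ratios, the smallest Benjamini-Hochberg adjusted p was 0.32. The exact p of shares of the sum, of single entries and of alternative settings were outside that family and were not adjusted. Named were the muscle entries, members of the 2 wider lists, and the entries most like the muscle entries: 5 for the sum and 3 for each averaging at least 10 RPM. The entries and lists were chosen with earlier results of these data known. Results of marker lists other than those in the text were: 3 endothelial entries, 58.7 ± 5.71 (control) and 22.7 ± 5.90 RPM (knockout); 7 epithelial, 24.9 ± 0.378 and 25.9 ± 8.28; 2 neural, 27.2 ± 8.83 and 14.3 ± 9.70; 5 liver and gut, 413 ± 6.08 and 334 ± 112.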

Additional observations from a re-analysis of the deposited data

How the results depend on the processing

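Over 17 alternative fits, 0 of the tested muscle entries and 0 of the Runx2-targeting entries, passenger arms included, passed limma's threshold. The log2 fold change of miR-206-3p ranged from -0.67 to -0.11 and that of miR-133a-5p from 0.22 to 1.02, each with an unchanged sign. The difference of the summed level of the muscle entries reversed to 25.5 RPM with scaling to all annotated entries, and was -25.8 RPM (exact permutation p = 0.1) without miR-133a-5p, the most abundant of them. With 1 library left out, that difference ranged from -10.3 to 6.33 RPM, and that per 1000000 ordinary miRNA reads from 42.1 to 137.03. For log2 ratios, the ranges are those of the difference between groups (knockout minus control). It ranged from -0.64 to 0.84 for miR-1a-3p to miR-133a-3p and from -0.83 to 0.0553 for miR-206-3p to miR-1a-3p. For miR-133a-5p to miR-133a-3p it ranged from 0.46 to 1.16. The log2 fold change ranged from -1.44 to 0.0244 for miR-1a-1-5p and from -0.19 to 0.74 for miR-206-5p (-0.12 without knockout replicate 2). Rescaling to ordinary miRNAs turned miR-34c-5p to 0.07. The single call among the other muscle-enriched entries, miR-486b-5p, went to 0 calls with median centring, quantile normalization, no trend and either rescaling, and to 0 or 1 with a library left out. Over all entries 54 were called; it was 98 with a mean of at least 10 RPM, 33 (28 higher, 5 lower) with scaling to all annotated entries, 0 with no trend (unadjusted p under 0.05: 55 higher, 75 lower) and 0 to 41 with a library left out (0 without control replicate 3, where 53 and 84 had an unadjusted p under 0.05; 6 without control replicate 2, 20 without knockout replicate 2, 21 without control replicate 1). The split of 24 higher and 30 lower became 38 and 2 with ordinary miRNAs as the base, 32 and 8 under median centring, 32 and 16 under quantile normalization, and the median of all tested entries moved from -0.27 to 0.06, -0.08 and -0.05. The cause of these changes was not tested. The correlation of deviations of same-numbered libraries was -0.02 to 0.01, so the numbers were not taken as pairs; with a replicate block 30 entries were called, 0 of them muscle entries, and miR-206-3p had -0.56 (limma adjusted p = 0.446). Count tests on reads recovered from the RPM steps were not run, since the deposited values are not counts. Depth limits the 4 low entries, at 9 reads or fewer.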

Other observations

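Other entries with the seed of miR-206-3p were rare in these vesicles. In the part of RefSeq's table that was searched, miR-6349 and miR-6382 have the same bases 2 to 8. miR-6349 was listed at 2.26 RPM in knockout replicate 2 and at 0 in the other 5 libraries. miR-6382 was listed at 1.44 RPM in control replicate 1 and 1.24 RPM in knockout replicate 1 and at 0 in the other 4. miR-133c, a miRNA numbered with the miR-133 family, was listed at 3.70 RPM in control replicate 2 and 1.69 RPM in knockout replicate 2 and at 0 in the other 4. miR-1b-3p was listed at 1.23 RPM in control replicate 3 alone.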
